A study of Mus musculus with 12 samples.

Results

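The transcription factor genes Runx2, Runx1, Sp7, Dlx3, Dlx5, Dlx6, Msx1, Msx2 and Twist1 of the osteoblast lineage were followed in MC3T3-E1 cells given 25-hydroxyvitamin D (25(OH)D). They were taken by gene symbol from the count table, which held all 9 of them among 56691 genes, each as a single entry. MC3T3-E1 is a pre-osteoblast line from mouse calvaria that lays down and mineralizes a collagen matrix in osteogenic medium. All groups shared 28 days of differentiation, and their medium contained 0.1 µM dexamethasone, 50 µg/ml ascorbic acid and, as a donor of phosphate, 10 mM beta-glycerophosphate (BGP). Treatment ran for 24 h from day 27. One group received 100 µM 25(OH)D with 100 µM ZK191784, a compound that the labels give by its code name. A further group received 100 µM 25(OH)D with another 4 mM BGP, one more received 100 µM 25(OH)D alone, and the control was untreated. No group received ZK191784 or the added BGP without 25(OH)D, and whether the unit of the 25(OH)D dose is as labelled could not be checked. Each group had 3 libraries of 3' mRNA sequencing, and the labels do not say that these came from separate cultures. The p-values therefore rest on the spread among the libraries alone, which may be technical.

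RUNX2 is the factor without which osteoblasts do not form, and it binds DNA with the subunit CBFB. SP7 (osterix) is a zinc finger factor that acts after RUNX2 in the same lineage. The homeodomain proteins of the DLX and MSX families work on both sides of this step: DLX3, DLX5 and DLX6 are generally activators, while MSX1 and MSX2 are best known as repressors in early skeletal and tooth tissue. TWIST1, a basic helix-loop-helix factor, holds back RUNX2 in skeletal progenitors. RUNX1 is a relative of RUNX2 known chiefly from blood formation and also made in skeletal progenitors.

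Library totals lay between 3318723 and 5170980 counts. All 9 markers of osteoblasts were tested, and their summed level was 74832 to 85957 CPM (counts scaled to a common library size) with 25(OH)D plus ZK191784, 71712 to 78914 CPM with 25(OH)D plus BGP, 71409 to 79402 CPM with 25(OH)D alone and 128087 to 143099 CPM in control libraries. Spp1 carried much of the sum after 25(OH)D, and the other 8 markers together had 63627 to 74456 CPM with 25(OH)D plus ZK191784, 17931 to 21360 CPM with 25(OH)D plus BGP, 21314 to 24027 CPM with 25(OH)D alone and 124903 to 139242 CPM in control libraries. Sparc was the largest part of that sum, at 71819 ± 20751 CPM in control libraries. Alpl, also among these 8, went the other way. It had 48.1 ± 1.95 CPM with 25(OH)D, against 25.2 ± 3.95 CPM in control libraries (adjusted p = 0.0138, edgeR). With 25(OH)D plus ZK191784 it had 28 ± 4.4 CPM. Of 6 macrophage and leukocyte markers 5 were tested, none was at 0 throughout a group, and the list summed to 218 to 397 CPM with 25(OH)D plus ZK191784, 190 to 392 CPM with 25(OH)D plus BGP, 204 to 371 CPM with 25(OH)D and 220 to 469 CPM in control libraries. The ranges of that list overlapped between all groups. Osteocyte markers, 5 of 6 of them tested and mostly Pdpn, summed to 87 to 117 CPM with 25(OH)D plus ZK191784, 75.6 to 77.9 CPM with 25(OH)D plus BGP, 52 to 66.1 CPM with 25(OH)D alone and 111 to 150 CPM in control libraries, and 3 were lower with 25(OH)D than in control libraries. Pdpn alone had 54.1 ± 6.07 CPM with 25(OH)D, against 99.6 ± 16.1 CPM in control libraries. Dmp1 had 3.07 ± 1.55 against 2.52 ± 1.43 CPM (adjusted p = 0.812, edgeR). Chondrocyte markers, 2 of 7 of them tested and mostly Sox9, summed to 86.5 to 183 CPM with 25(OH)D plus ZK191784, 65.4 to 120 CPM with 25(OH)D plus BGP, 70 to 154 CPM with 25(OH)D alone and 100 to 245 CPM in control libraries. Col2a1, the cartilage collagen, had 1.21 ± 0.58 CPM with 25(OH)D, against 31.7 ± 20.4 CPM in control libraries (adjusted p = 0.000131, edgeR), and 19.9 ± 6.13 CPM with 25(OH)D plus ZK191784, against the same 1.21 ± 0.58 CPM with 25(OH)D (adjusted p = 0.00118, edgeR). The 7 adipocyte markers summed to at most 29.1 CPM in any library, and 1 of the 2 tested, Fabp4, was lower, at 0.882 ± 1.09 CPM with 25(OH)D against 5.86 ± 2 CPM in control libraries (adjusted p = 0.0222, edgeR), with 4.39 ± 1.88 CPM for 25(OH)D plus ZK191784. The osteocyte sum, Col2a1 and Fabp4 averaged lower with 25(OH)D alone than with 25(OH)D plus ZK191784 and in control libraries, as Runx2 and Dlx5 did, and the part of any of these lists in the results was not tested. The other tested chondrocyte marker, Sox9, had 109 ± 41.5 CPM with 25(OH)D, against 122 ± 57.9 CPM in control libraries (adjusted p = 0.862, edgeR). Cebpa, the other tested adipocyte marker, had 13.5 ± 4.51 against 10.8 ± 3.15 CPM (adjusted p = 0.63, edgeR). With 25(OH)D plus ZK191784 they had 111 ± 41 and 18.8 ± 2.11 CPM. In such bulk libraries, fewer cells of a type and less RNA per cell cannot be told apart.

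Promoter windows were read from the RefSeq promoter table of build GRCm38.p6, in which 5 of the 9 genes had 6 entries, for Runx2, Msx1, Msx2 and Twist1 and for a distal and a proximal start of Runx1. Sp7, Dlx3, Dlx5 and Dlx6 had no entry. The Runx2 and the distal Runx1 windows are shown because the levels of these paralogs ran in opposite directions, as described further on, and because they hold the same short run of RUNX motifs. No difference in Runx1 reached an adjusted p under 0.05 in the edgeR fit of all 12 libraries without a covariate. The first sequence is the 250 bases before the Runx2 start, at chr17:44814628-44814877 on the minus strand, and the second is the 250 bases before the distal Runx1 start, at chr16:92826075-92826324 on the minus strand. Capitals mark the RUNX core ACCACA and the nuclear receptor motif AGGTCA on either strand.
Runx2: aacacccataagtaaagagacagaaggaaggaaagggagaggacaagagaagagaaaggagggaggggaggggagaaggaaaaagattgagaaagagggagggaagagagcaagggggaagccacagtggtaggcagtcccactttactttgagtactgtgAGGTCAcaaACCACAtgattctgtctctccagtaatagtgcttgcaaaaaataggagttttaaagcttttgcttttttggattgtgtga
Runx1 distal: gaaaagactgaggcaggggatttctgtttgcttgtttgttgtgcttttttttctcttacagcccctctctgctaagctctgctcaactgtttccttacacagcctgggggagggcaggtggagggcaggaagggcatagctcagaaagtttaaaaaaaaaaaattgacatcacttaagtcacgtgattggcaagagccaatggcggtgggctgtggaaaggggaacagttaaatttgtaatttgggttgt
A run of 22 bases just after the start is identical in both genes, at chr17:44814588-44814609 in Runx2 and at chr16:92826030-92826051 in Runx1, and its capitals mark 2 copies of the RUNX core, which are those of the distal Runx1 window.
Shared run: aaacaACCACAgaACCACAagt

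Each window covered the 250 bases before and the 50 bases after a start, and motifs were searched on both strands. Runx2 held 3 copies of ACCACA and distal Runx1 held 2, while the windows of proximal Runx1, Msx1, Msx2 and Twist1 held none. The motif stood in 16.8% of the 32851 windows of the table. Runx2 also held 1 copy of AGGTCA, which starts at position -89 and is followed after 3 bases by the RUNX core at position -80. AGGTCA stood in 16.3% of all windows and in no other window of these genes. None of the 6 windows held the vitamin D receptor element spelled strictly as a direct repeat of AGGTCA with 3 bases between the copies, which was present in 0.00609% of all windows. The homeodomain core TAATTG was in none of the 6 windows and in 8% of all. The GC box GGGCGG, a letter pattern bound by SP family factors, occurred once each in Msx1, Msx2 and Twist1 and in 35.7% of all windows. The E-box CANNTG, bound by factors such as TWIST1, occurred 3 times in distal Runx1, 2 times in Runx2, where both copies overlap a RUNX core, and once each in Msx1 and Msx2, against 72.3% of all windows with at least 1 copy.

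Runx2 was low after 25(OH)D, except where ZK191784 had been added. Libraries with 25(OH)D plus ZK191784 had 181, 151 and 145 CPM. The libraries with 25(OH)D plus BGP had 70.4, 70.9 and 69.4 CPM, those with 25(OH)D had 93.1, 86.8 and 69.7 CPM, and control libraries had 147, 188 and 189 CPM. The 6 libraries given 25(OH)D with or without added BGP were the lowest, and all control and ZK191784 libraries lay above them. Dlx5, which is expressed in differentiating osteoblasts and stands next to Dlx6 in the genome, had the same order. Its level was 114, 89.9 and 79.1 CPM with 25(OH)D plus ZK191784, 17.7, 29.1 and 26 CPM with 25(OH)D plus BGP, 33.7, 32.3 and 26.4 CPM with 25(OH)D and 74.8, 108 and 106 CPM in control libraries. Again no library given 25(OH)D with or without BGP reached any library of the other 2 groups. Dlx6 followed Dlx5, with 20.7, 20 and 13.5 CPM with 25(OH)D plus ZK191784, 5.89, 4.5 and 6.56 CPM with 25(OH)D plus BGP, 10.7, 6.99 and 7.13 CPM with 25(OH)D and 11.5, 16.4 and 23.3 CPM in control libraries. The highest 25(OH)D library and the lowest control library of Dlx6 were close, at 10.7 and 11.5 CPM.

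Runx1 ran the other way. It had 16.4, 21.5 and 23.3 CPM with 25(OH)D plus ZK191784, 31.1, 35.3 and 25.6 CPM with 25(OH)D plus BGP, 30.2, 30.9 and 34.9 CPM with 25(OH)D and 25.2, 17.5 and 14.7 CPM in control libraries. All 6 libraries given 25(OH)D with or without BGP were above all 6 others, by a margin of 25.6 to 25.2 CPM at the closest point.

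Sp7 varied more within a group than between groups. Its level was 87.2, 48.2 and 26.5 CPM with 25(OH)D plus ZK191784, 16.5, 44.1 and 28 CPM with 25(OH)D plus BGP, 63.6, 31.1 and 11.9 CPM with 25(OH)D and 23, 31.6 and 92.8 CPM in control libraries. The groups overlapped throughout. Dlx3, a factor of bone, tooth and skin, was rare and equally scattered, at 3.28, 0.723 and 0.87 CPM with 25(OH)D plus ZK191784, 2.24, 6.21 and 2.51 CPM with 25(OH)D plus BGP, 6.69, 2.65 and 1.06 CPM with 25(OH)D and 0.959, 0.843 and 4.04 CPM in control libraries.

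Msx1 averaged 25.4 ± 3.23 CPM with 25(OH)D plus ZK191784, 24.6 ± 8.09 CPM with 25(OH)D plus BGP, 27.9 ± 6.05 CPM with 25(OH)D and 19.9 ± 4.11 CPM in control libraries (SD, n = 3 each). Twist1 averaged 10.1 ± 5.06 CPM with 25(OH)D plus ZK191784, 9.98 ± 6.04 CPM with 25(OH)D plus BGP, 7.4 ± 2.54 CPM with 25(OH)D and 8.34 ± 3.18 CPM in control libraries (SD, n = 3 each). Neither gene was called in any comparison between the groups. Msx2 was near the limit of detection, with 3, 2 and 3 counts in the libraries with 25(OH)D plus ZK191784, 0, 3 and 0 counts with 25(OH)D plus BGP, 2, 0 and 1 counts with 25(OH)D and 0, 7 and 1 counts in control libraries. It did not pass the filter on low counts, so 8 of the 9 genes were tested.

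**Figure D1:**
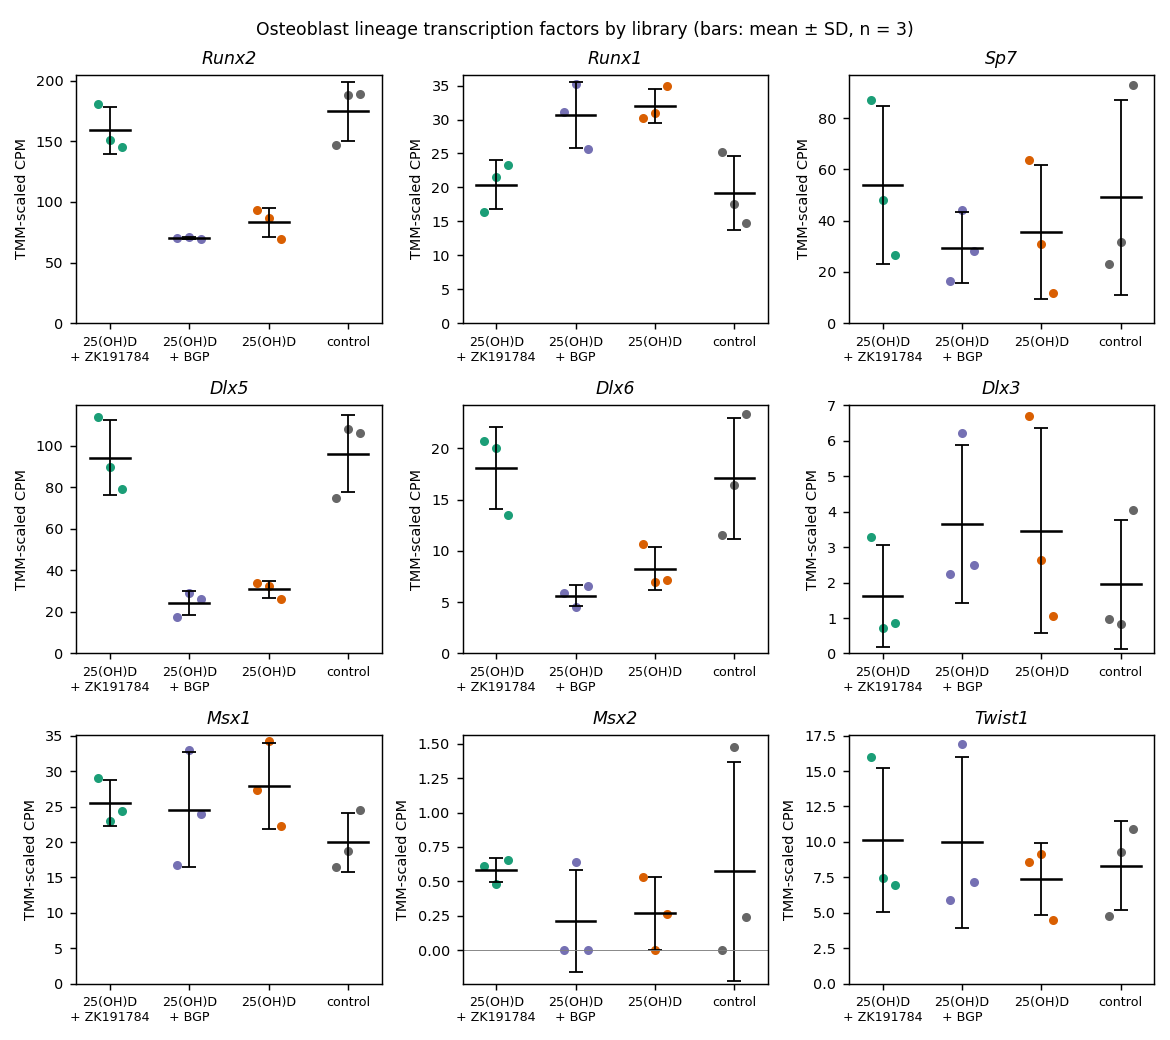
Level in CPM (y axis, linear, TMM-scaled) of each of the 9 genes in each library (points), with group mean and SD (lines, n = 3), for 25(OH)D plus ZK191784, 25(OH)D plus BGP, 25(OH)D and control on the x axis. Runx2, Dlx5 and Dlx6 are low and Runx1 is high in the libraries given 25(OH)D with or without BGP, and Sp7 and Dlx3 spread widely within every group.

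The first comparison was that of 25(OH)D with control. Runx2 fell to 83.2 ± 12.1 CPM with 25(OH)D, against 175 ± 23.7 CPM in control libraries (SD, n = 3 each), a log2 fold change of -1.07 ± 0.16 (SE) with an adjusted p of 0.000767 by edgeR's quasi-likelihood test, or 2.1-fold lower. Dlx5 fell further, to 30.8 ± 3.87 CPM with 25(OH)D, against 96.5 ± 18.8 CPM in control libraries, with a log2 fold change of -1.65 ± 0.23 (adjusted p = 0.000468, edgeR), or 3.13-fold lower. These were the 2 calls among the 8 genes tested at an adjusted p under 0.05, and both were lower with 25(OH)D, beside 8.68% of all 14394 genes called in either direction and 3.93% called lower. With 8 genes, chosen with earlier results of these data known, a count of 2 is a small base for reading a share. Dlx6 was 2.06-fold lower in the fit (log2 fold change -1.05 ± 0.32) and Runx1 was 1.67-fold higher (0.74 ± 0.23), and neither passed the threshold (adjusted p = 0.0638 and 0.0755, edgeR). In 4 of the 8 genes the groups did not overlap, as in 21.9% of all genes tested. Msx1 differed by 0.49 ± 0.27, Sp7 by -0.47 ± 0.65, Dlx3 by 0.83 ± 0.82 and Twist1 by -0.17 ± 0.50 on the log2 scale, with adjusted p values of 0.363, 0.747, 0.64 and 0.89 (edgeR). The 95% intervals of Sp7, from -1.88 to 0.94, and Dlx3, from -0.96 to 2.62, leave room for changes as large as that of Dlx5. DESeq2 called 4 of the 8 genes, as did the fit without control library 1, with Dlx6 and Runx1 added in each (adjusted p = 0.0273 and 0.0261 by DESeq2, 0.0353 and 0.0289 by edgeR without that library). Those fits called 11.5% and 6.32% of all genes they tested. Without control library 3 the Sp7 difference was 0.38, and without 25(OH)D library 1 that of Dlx3 was -0.05.

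Adding 4 mM BGP to 25(OH)D changed none of the 8 genes at an adjusted p under 0.05, and 0% of all genes were called in this comparison. At an unadjusted p under 0.05 there were 268 genes, 1.86% of those tested, and none of the 8 was among them. DESeq2 called none of the 8 either. Runx2 had 70.2 ± 0.738 CPM with 25(OH)D plus BGP, against 83.2 ± 12.1 CPM with 25(OH)D, a log2 difference of -0.24 with a 95% interval from -0.59 to 0.10. For Dlx5 the difference was -0.34 (-0.83 to 0.16) and for Runx1 it was -0.06 (-0.56 to 0.44). Dlx6 was the 1 gene whose groups did not overlap, with a log2 difference of -0.55 (-1.27 to 0.18), while 6.04% of all genes did not overlap. Differences within these intervals remain compatible with the data, and the bounds are not limits of detection.

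With ZK191784 added to 25(OH)D, Runx2 and Dlx5 were higher than with 25(OH)D alone. Runx2 rose to 159 ± 19.4 CPM with 25(OH)D plus ZK191784, against 83.2 ± 12.1 CPM with 25(OH)D, a log2 fold change of 0.93 ± 0.16 (adjusted p = 0.00451, edgeR), or 1.91-fold. Dlx5 rose to 94.4 ± 18 CPM, against 30.8 ± 3.87 CPM with 25(OH)D, with a log2 fold change of 1.62 ± 0.23 (adjusted p = 0.00133, edgeR), or 3.06-fold. Both calls of the 8 genes were thus higher, beside 3.53% of all genes called and 1.42% called higher. Dlx6 was 2.18-fold higher (1.13 ± 0.32, adjusted p = 0.083) and Runx1 was 1.57-fold lower (-0.65 ± 0.23, adjusted p = 0.215), and neither passed the threshold in edgeR, while DESeq2 gave Dlx6 an adjusted p of 0.0278 and called 5.54% of all genes. The groups did not overlap in 4 of the 8 genes and in 17.6% of all genes. Sp7 differed by 0.60 ± 0.65, Dlx3 by -1.05 ± 0.83, Twist1 by 0.45 ± 0.49 and Msx1 by -0.13 ± 0.26 on the log2 scale, with adjusted p values between 0.806 and 0.958 (edgeR).

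Set against control, 25(OH)D plus ZK191784 gave no call among the 8 genes, where 0.723% of all genes were called, and DESeq2 gave none. None of the 8 had an unadjusted p under 0.05, as 6.67% of all genes did. The log2 difference was -0.14 for Runx2 (95% interval -0.47 to 0.20), -0.03 for Dlx5 (-0.50 to 0.44), 0.08 for Dlx6 (-0.58 to 0.74) and 0.09 for Runx1 (-0.42 to 0.60). No gene of the 8 had groups that did not overlap, against 11.8% of all genes. With 25(OH)D plus BGP, 3 of the 8 genes fell below control, beside 8.25% of all genes called and 4.35% called lower. These were Dlx5 by a log2 fold change of -1.98 ± 0.23 (adjusted p = 0.000127), Runx2 by -1.32 ± 0.16 (adjusted p = 0.000184) and Dlx6 by -1.59 ± 0.32 (adjusted p = 0.00767), all by edgeR. The same 3 genes were higher with 25(OH)D plus ZK191784 than with 25(OH)D plus BGP, by 1.95 ± 0.23, 1.18 ± 0.16 and 1.67 ± 0.32 for Dlx5, Runx2 and Dlx6 (adjusted p = 0.00044, 0.00112 and 0.0123, edgeR), beside 3.25% of all genes called and 1.6% called higher. The call of Dlx6 was lost without BGP library 2 or ZK191784 library 1 or 2, at adjusted p = 0.058, 0.0599 and 0.0641 (edgeR). In each of these comparisons the groups did not overlap in 4 of the 8 genes, as in 21% of all genes for 25(OH)D plus BGP against control and 17.1% for the 2 combinations. Without control library 1, Runx1 also passed for 25(OH)D plus BGP against control, which made 4 calls beside 6.29% of all genes, and DESeq2 gave the same 4 (Runx1 at adjusted p = 0.0444) beside 11.1%. These comparisons share their control, 25(OH)D or combination libraries with those above and are given side by side.

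**Figure D2:**
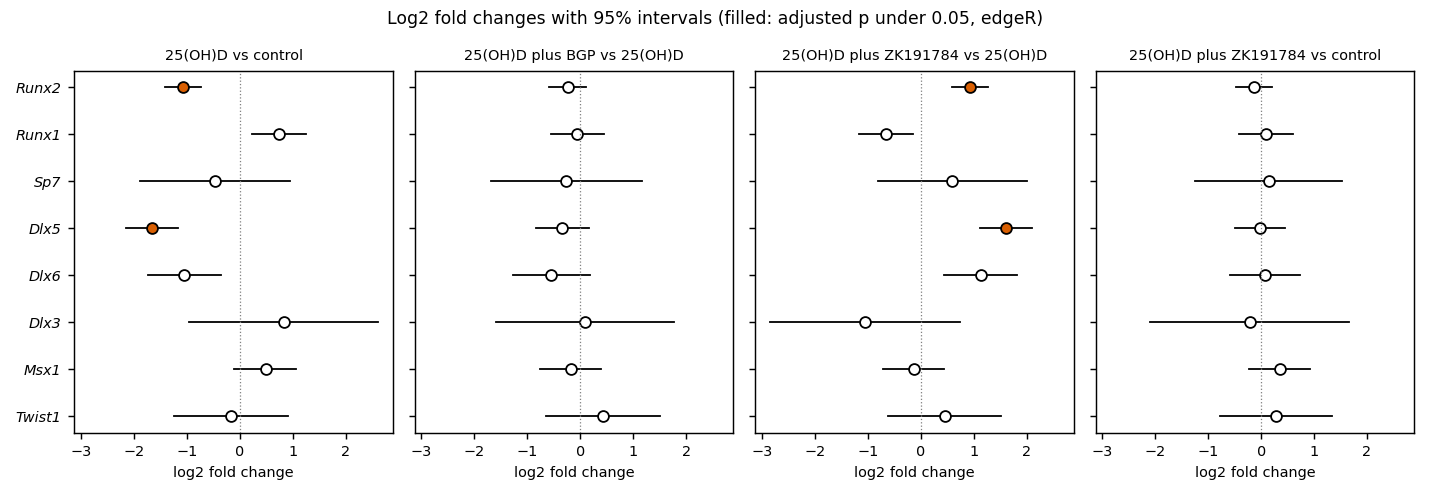
Log2 fold change (x axis) with 95% interval of the 8 genes tested (rows) in 4 comparisons (panels), filled where the adjusted p by edgeR was under 0.05. Runx2 and Dlx5 are filled at -1.07 and -1.65 for 25(OH)D against control and at 0.93 and 1.62 for 25(OH)D plus ZK191784 against 25(OH)D, and the intervals of Sp7 and Dlx3 are the widest.

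For Msx2 the counts were summed by group, to 8 with 25(OH)D plus ZK191784, 3 with 25(OH)D plus BGP, 3 with 25(OH)D alone and 8 in control libraries. For 25(OH)D against control the ratio was 0.414, with a 95% exact binomial interval from 0.0707 to 1.72, and that of 25(OH)D plus ZK191784 to 25(OH)D was 2.35, from 0.563 to 13.7. For 25(OH)D plus BGP against 25(OH)D the ratio was 0.89, from 0.119 to 6.65. The intervals cover counting error only, and exact two-sided permutation tests over the libraries gave p = 0.9, 0.2 and 1 for these 3 comparisons. A difference in Msx2 was not detectable at this depth.

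Pairs of paralogs and partners were also set against each other as count ratios within a library, which do not depend on how libraries are scaled against each other. The log2 ratio of Runx1 to Runx2 was -1.37 ± 0.33 with 25(OH)D, against -3.21 ± 0.59 in control libraries (SD, n = 3 each), a difference of 1.84. With 25(OH)D plus ZK191784 it was -2.97 ± 0.44, which is -1.60 relative to 25(OH)D alone. Each of these gave p = 0.1 in an exact two-sided permutation test, the smallest p that 3 against 3 libraries allow, and 0.24 after adjustment over 12 tests. The lowest ratio in the 6 libraries given 25(OH)D with or without BGP was -1.62, and the highest in the other 6 was -2.54. The ratio of Dlx3 to Dlx5 differed in the same sense, by 2.43 for 25(OH)D relative to control and by -2.61 for 25(OH)D plus ZK191784 relative to 25(OH)D (exact permutation p = 0.1 each, adjusted 0.24). It rests on few Dlx3 counts: 16, 3 and 4 with 25(OH)D plus ZK191784, 25, 11 and 4 with 25(OH)D and 4, 4 and 17 in control libraries. The closest 25(OH)D and control libraries had log2 ratios of -4.48 and -4.68. The ratio of Twist1, which restrains RUNX2, to Runx2 was higher by 0.92 with 25(OH)D than in control libraries (exact permutation p = 0.1, adjusted 0.24) and lower by 0.53 with 25(OH)D plus ZK191784 than with 25(OH)D (exact permutation p = 0.2). The ratio of Sp7 to Runx2 gave exact permutation p values of 0.5 and 0.8 in these comparisons. Adding BGP gave no ratio a p of 0.1. The denominators Runx2 and Dlx5 were themselves called for 25(OH)D against control and for 25(OH)D plus ZK191784 against 25(OH)D, whereas none of the numerators was (edgeR).

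**Figure D3:**
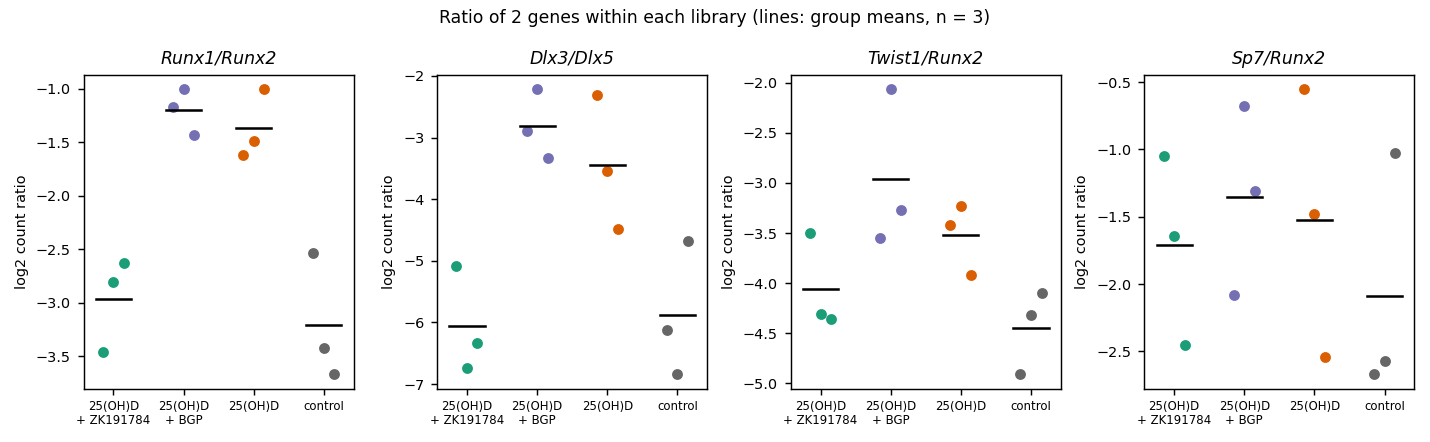
Log2 of the count ratio of 2 genes within each library (y axis; points are libraries, lines are group means, n = 3) for 25(OH)D plus ZK191784, 25(OH)D plus BGP, 25(OH)D and control on the x axis. The Runx1 to Runx2 ratio is at or above -1.62 in the libraries given 25(OH)D with or without BGP and at or below -2.54 in all others, while the Sp7 to Runx2 ratio overlaps between all groups.

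The scatter of Sp7 and Dlx3 ran with a property of the libraries whose range overlapped between all groups. This library ratio, the log2 of counts from 104 ribosomal protein genes over those from 25875 predicted genes and pseudogenes, ranged from -1.70 to -0.41. Its mean was -1.11 ± 0.38 with 25(OH)D plus ZK191784, -1.02 ± 0.59 with 25(OH)D plus BGP and -1.06 ± 0.63 with 25(OH)D (SD, n = 3 each). In control libraries it was -1.28 ± 0.64, so the groups were not fully balanced for it. In each of the 4 groups, the library with the highest ratio had the highest level of Sp7, Dlx3 and Runx2. Within groups Sp7 spanned up to 2.38 and Dlx3 up to 2.23 on the log2 scale, against up to 0.41 for Runx2. In a fit with the ratio as a covariate, the level changed per unit of ratio by 1.63 ± 0.13 for Sp7, 1.85 ± 0.37 for Dlx3 and 0.92 ± 0.23 for Twist1 on the log2 scale (SE). Slopes as large in size were found in 2.74%, 1.42% and 20.3% of all genes tested. Runx2 changed by 0.19 ± 0.09 and Runx1 by -0.18 ± 0.14 per unit, and the median over all genes was 0.03. With the covariate, 5 of the 8 genes were called both for 25(OH)D against control and for 25(OH)D plus ZK191784 against 25(OH)D. That fit also called more of all genes, 19.8% and 11.3% in these comparisons. It called 5 of the 8 as well for 25(OH)D plus BGP against control, beside 18.6% of all genes, and for 25(OH)D plus ZK191784 against 25(OH)D plus BGP, beside 11.1%. Sp7 then differed by -0.84 ± 0.18 with 25(OH)D relative to control (adjusted p = 0.000408) and by 0.82 ± 0.17 with 25(OH)D plus ZK191784 relative to 25(OH)D (adjusted p = 0.000695). Dlx6 was at -1.14 ± 0.26 and 1.15 ± 0.25 (adjusted p = 0.001 and 0.00114), and Runx1 was at 0.79 ± 0.20 and -0.66 ± 0.19 (adjusted p = 0.0027 and 0.016), all by edgeR with the covariate. Dlx3 had adjusted p values of 0.642 and 0.405 in that fit. For 25(OH)D against control, the covariate moved Sp7 from -0.47 ± 0.65 to -0.84 ± 0.18 and Dlx3 from 0.83 ± 0.82 to 0.44 ± 0.52. How much of these shifts came from the unequal group means of the ratio was not tested. The ratio had been found in these libraries, and what sets it was not tested.

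**Figure D4:**
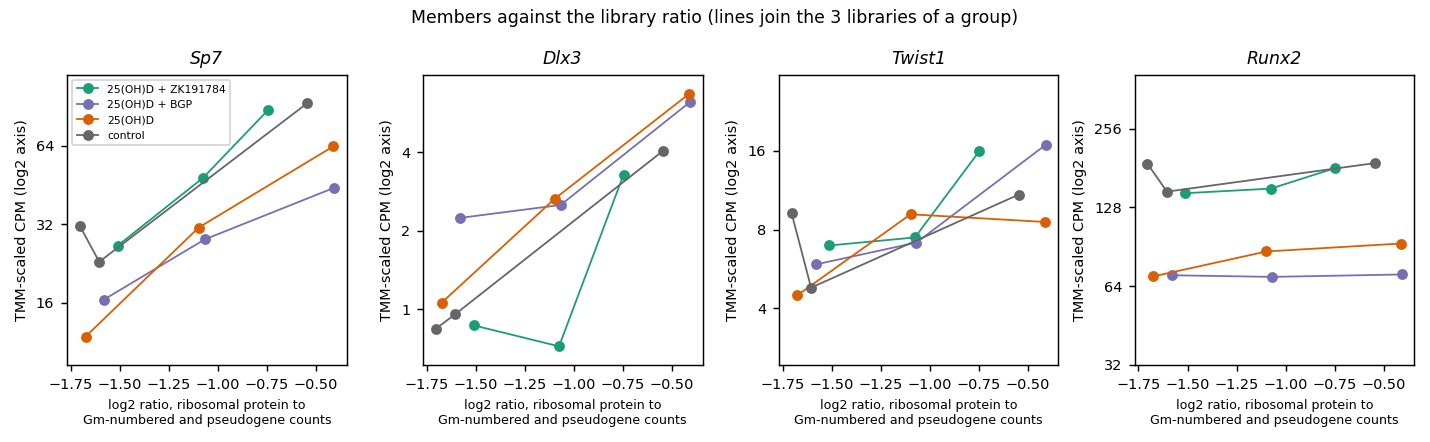
Level of Sp7, Dlx3, Twist1 and Runx2 (y axes, CPM on a log2 axis) against the library ratio of ribosomal protein genes to predicted genes and pseudogenes (x axis, log2), 1 point per library, with lines that join the libraries of a group. The highest point of Sp7 and of Dlx3 in each group is at its highest ratio, with fitted slopes of 1.63 and 1.85, whereas Runx2 lies in 2 bands, with 25(OH)D plus ZK191784 and control above 25(OH)D plus BGP and 25(OH)D.

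Transcripts annotated opposite to Runx2 and Dlx6 were looked at because the strand mode of the counting is not given in the sources used here. Whether reads of the overlapping gene entered their counts, or the reverse, could therefore not be checked. Runx2os1 averaged 4.41 ± 2.71 CPM with 25(OH)D plus ZK191784, 3.9 ± 0.476 CPM with 25(OH)D plus BGP, 4.74 ± 3.2 CPM with 25(OH)D and 3.58 ± 2.85 CPM in control libraries (SD, n = 3 each), and it was not called in any comparison. Dlx6os1 did not pass the filter and summed to 32 counts with 25(OH)D plus ZK191784, 18 with 25(OH)D plus BGP, 21 with 25(OH)D alone and 26 in control libraries, beside 246, 76, 96 and 224 counts of Dlx6 in these groups.

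Over the 12 libraries, Pearson's r of log2 CPM was 0.981 between Runx2 and Dlx5, 0.938 between Runx2 and Dlx6 and 0.921 between Dlx5 and Dlx6, and it was -0.899 between Runx1 and Runx2. Sp7 had an r of 0.540 with Runx2 and 0.772 with Twist1. These values are descriptions, since the libraries share the 4 treatments and the library ratio. Among 8562 genes with enough counts, the patterns most like Runx2 were those of Lmo7 (r = 0.991), Enah (0.990), which regulates actin filaments, and Mertk (0.984), a receptor tyrosine kinase. Lmo7 and Enah were also nearest to Dlx5 (0.990 and 0.988), followed by Col6a2 (0.985), a collagen VI chain. Nearest to Dlx6 was Runx3 (0.961), the remaining RUNX gene. Runx1 was followed most closely by Chd3 (0.944), Zmiz1 (0.934) and Alpl (0.929), the tissue nonspecific alkaline phosphatase of mineralizing cells. Sp7 was nearest to Slc30a4 (0.990), a zinc transporter, Dlx3 to Phospho2 (0.974), Msx1 to Cfl2 (0.937), a cofilin, and Twist1 to Dnm3os (0.943).

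Among other transcription factors of the skeletal lineage, Mef2c fell and Hoxa10, Tcf7l2, Meis2 and Foxc2 rose with 25(OH)D relative to control. Of 62 tested, 15 were called, 9 higher and 6 lower, which is 24.2% beside 8.68% of all genes, and the median log2 fold change of the list was -0.05, as over all genes. This list, like those of RUNX2 partners and bone matrix below, was chosen with earlier results of these data known. The shares are therefore descriptions. Without 25(OH)D library 1 the count was 9. For fits without a 25(OH)D or ZK191784 library, no share of all genes called is given. A lower count there is not a result about the list. Mef2c, a MADS-box factor of muscle and bone, fell to 77.5 ± 7.4 CPM with 25(OH)D, against 415 ± 89.5 CPM in control libraries (log2 fold change -2.42 ± 0.19). Hoxa10 rose by 1.83 ± 0.20, Tcf7l2, a nuclear effector of Wnt signalling, by 2.07 ± 0.24, and Meis2 by 0.86 ± 0.13. Foxc2, a forkhead factor, had 18 ± 6.26 CPM with 25(OH)D, against 2.77 ± 0.618 CPM in control libraries (2.69 ± 0.41). With ZK191784 added to 25(OH)D, 6 of the 62 were called, or 9.68% beside 3.53% of all genes, and 3 without ZK191784 library 2 or 3. Mef2c and Id2 rose, by 1.25 ± 0.18 and 0.61 ± 0.15, and Tcf7l2, Meis2 and Foxc2 fell, at -1.25 ± 0.24, -0.82 ± 0.13 and -1.55 ± 0.38. The calls of Id2, Foxc2 and Tcf7l2 there were lost in 9, 8 and 2 of the fits that left out 1 library, at adjusted p of up to 0.168, 0.185 and 0.0574 (edgeR). With 25(OH)D plus ZK191784, Mef2c had 184 ± 6.89 CPM and Hoxa10 had 99.8 ± 17.1 CPM, against 415 ± 89.5 and 38.6 ± 4.74 CPM in control libraries, and these were the 2 factors of the list called there (adjusted p = 0.01 and 0.00576, edgeR). That of Mef2c was lost in 4 fits without 1 library, at up to 0.0674. Added BGP gave no call in this list.

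Of 43 partners and modulators of RUNX2, 5 were called for 25(OH)D against control (11.6% beside 8.68% of all genes), 3 higher and 2 lower. The share was thus close to that over all genes, and the median log2 fold change of the list was 0.03, against -0.05 over all genes. The count was 3 when library 1 or 2 of either group was left out. Among those fits, the share of all genes called is given only for that without control library 1, at 6.32%. The lower count is therefore not a result about the list. Cbfb, the gene of the partner subunit of all RUNX proteins, rose by 0.98 ± 0.25 (adjusted p = 0.026, edgeR) while Runx2 fell. Wwtr1 (TAZ), a coactivator of RUNX2, rose by 1.52 ± 0.36, and Nsd3, a histone methyltransferase, rose by 0.57 ± 0.12. The calls of Cbfb and Wwtr1 were lost in 5 and 4 fits without 1 library, at adjusted p of up to 0.103 and 0.0928 (edgeR), and that of Nsd3 was lost in 2 other alternatives, at up to 0.0793. Smurf2, a ubiquitin ligase, fell to 129 ± 6.97 CPM with 25(OH)D, against 321 ± 23.3 CPM in control libraries, and Lmna, the gene of lamin A and C, fell by 0.87 on the log2 scale. With ZK191784 added, Lmna and Smurf2 rose by 0.88 ± 0.15 and 0.78 ± 0.15 relative to 25(OH)D and Hdac7 fell by 0.70, which makes 3 of 43 (6.98% beside 3.53%). Lmna alone was called when 25(OH)D library 1 or 2 or ZK191784 library 1 or 2 was left out, fits for which no share of all genes is given. The calls of Hdac7 and Smurf2 were lost in 8 and 4 fits without 1 library, at adjusted p of up to 0.205 and 0.0682 (edgeR). Cbfb differed there by -0.41 ± 0.24 (adjusted p = 0.643) and Wwtr1 by -1.17 ± 0.35 (adjusted p = 0.115). No gene of the list was called for added BGP or for 25(OH)D plus ZK191784 against control.

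Genes of bone matrix and mineral, many of them known targets of RUNX2 and SP7, were called in 22 of 31 cases for 25(OH)D against control, 16 of them lower, which is 71% beside 8.68% of all genes. Because the list was chosen with earlier results of these data known, its shares are descriptions. The median log2 fold change was -1.47, against -0.05 over all genes. Ifitm5, Col11a1, Ibsp and Col1a1 were the falls of smallest p, and Ibsp, a matrix sialoprotein, had 92.7 ± 35.5 CPM with 25(OH)D, against 13675 ± 5662 CPM in control libraries. Spp1 and Vdr, both classic targets of the vitamin D receptor, rose by 3.92 ± 0.15 and 2.71 ± 0.17. With ZK191784 added to 25(OH)D, 12 of the 31 were called, 11 of them higher, which is 38.7% beside 3.53% of all genes. The median was 1.13, against 0.02 over all genes. Without ZK191784 library 1 or 2, 7 were called, and no share of all genes is given for those fits. Vdr was at 382 ± 9.65 CPM with 25(OH)D plus ZK191784, against 400 ± 68.7 CPM with 25(OH)D, a log2 difference of -0.06 with an interval from -0.42 to 0.29. In the comparison of 25(OH)D plus ZK191784 with control 4 of the 31 were called (12.9% beside 0.723%), with Vdr and Spp1 higher by 2.64 ± 0.17 and 1.71 ± 0.14 and Col11a1 and Ifitm5 lower, at -1.28 ± 0.15 and -1.22 ± 0.20. The call of Ifitm5 was lost in 4 fits without 1 library, at adjusted p of up to 0.0911 (edgeR).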

How the data were processed

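RNA of 12 MC3T3-E1 libraries was sequenced from the 3' end. The deposited values are raw counts per gene symbol. The submitters' processing notes list STAR 2.7.9a, featureCounts, Subread 2.0.3 and mouse build mm39. DESeq2 1.38.2 is named there without its role. The strand mode, the annotation and any filter were not given in the sources used here. Library totals of 3318723 to 5170980 counts limit rare genes such as Msx2.

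From these counts, 14394 genes holding 99.4% of all counts passed filterByExpr of edgeR 4.0.16 in R 4.3.3 at a minimum count of 10 and a minimum total of 15. Libraries were scaled by TMM. A robust quasi-likelihood model with 1 coefficient per group was fitted to all 12 libraries, and p was adjusted by Benjamini-Hochberg over all genes tested. An SE is the absolute log2 fold change over the square root of F and is approximate. CPM are TMM-scaled. Count ratios had 0.5 added to each count, and 12 rather than the 15 planned ratio tests were run because Msx2 did not pass the filter. Alternatives were RLE, DESeq2 1.42.0, no filter, CPM of at least 2 in 3 libraries, a replicate block, the library ratio as covariate, a fit of only the 2 groups compared and omission of each library. All 9 genes were named whatever their result, with the 3 genes most like each by Pearson's r (mean log2 CPM of at least 3) and up to 6 called genes of smallest p from each list. The members and lists were chosen with earlier results of these data known. The lists share a few symbols, and some list genes that this rule names are not reported here. Promoters came from a RefSeq table of build GRCm38.p6, which is not the build of the counts, so no other positions are given.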

Additional observations from a re-analysis of the deposited data

How the results depend on the processing

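The calls of Runx2 and Dlx5 for 25(OH)D against control and for 25(OH)D plus ZK191784 against 25(OH)D held under all 19 alternatives, at adjusted p of at most 0.0143 and 0.0039 in the first comparison and 0.0266 and 0.00857 in the second. No result reversed a call. For the 8 genes, DESeq2 called 4 for 25(OH)D against control and 4 for 25(OH)D plus BGP against control, and the library ratio as covariate called 5 there, 5 for 25(OH)D plus ZK191784 against 25(OH)D, 5 for 25(OH)D plus BGP against control and 5 for 25(OH)D plus ZK191784 against 25(OH)D plus BGP, where it called 19.8%, 11.3%, 18.6% and 11.1% of all genes. For 25(OH)D and for 25(OH)D plus BGP, each against control, DESeq2 called 11.5% and 11.1% of all genes. Leaving out each library gave 2 to 4 calls for 25(OH)D against control, the 4 without control library 1. For other skeletal factors the calls for 25(OH)D against control were 30 with the covariate, 9 with the 2 groups alone and 9 to 16 without 1 library. For 25(OH)D plus ZK191784 against 25(OH)D they were 10 with DESeq2, 20 with the covariate and 3 to 7 without 1 library. RUNX2 partners gave 11 with the covariate, 3 with the 2 groups alone and 3 to 5 without 1 library in the first comparison, and 5 with DESeq2, 11 with the covariate and 1 to 3 without 1 library in the second. Bone matrix genes gave 23 with the covariate and 7 to 14 without 1 library for 25(OH)D plus ZK191784 against 25(OH)D. The cause of these shifts was not tested. For fits with the 2 groups alone or the replicate block, no share of all genes called is given here. The same holds for fits without 1 library, apart from that without control library 1. A lower count in those fits is therefore not a result about a list. Of 18 same-numbered pairs of libraries 4 had a correlation of deviations over 0.1, and 3 of 12 libraries correlated best with their own number. Such correlations also take in the library ratio, whose order by number differed between groups. They therefore cannot show whether same-numbered libraries, which share a letter in their labels, came from 1 culture or batch. The replicate block left the calls among the 8 genes at 2, 0, 2, 3, 0 and 3 in the 6 comparisons, the same counts as without it, and gave 12, 4 and 19 calls for skeletal factors, RUNX2 partners and bone matrix genes in the first comparison and 4, 2 and 8 in the second, against 15, 5 and 22 and 6, 3 and 12 without it. Over all values of the 8 genes and their ratios, 987 alternative values stayed on their side of the threshold or within the spread, 17 newly passed and 3 no longer passed, the last all for Dlx6 between the 2 combinations. Differences that were not called changed sign in places, as that of Sp7 for 25(OH)D against control, which ran from -1.19 to 0.38 without 1 library.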
